A study of Mus musculus with 18 samples.

Results

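Open chromatin of B cells was compared with that of T cells in mouse spleen, in patches of tissue cut out by laser. Of the 18 libraries in the series, the 10 cut as patches were used: 5 of B cells and 5 of T cells, chosen by their labels. All came from spleens of C57BL/6J mice labelled wt that carried no stated treatment, and the sources used here give neither age nor sex. A library pooled 10 patches that together held about 1000 nuclei. Frozen sections were treated with the transposase in place, and patches were picked by immunostaining of B or T cells.

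The libraries of a group are described as technical replicates, and the sources used here name neither the animals behind each library nor the stained markers. The p-values therefore measure the spread between these libraries, which may be technical. A patch takes in every nucleus inside its outline, stained or not. A lower value in 1 group can come from fewer cells of a type or from less open chromatin per cell, and these cannot be told apart.

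B and T lymphocytes occupy separate zones of the white pulp of the spleen: B cells form follicles, and T cells surround the central arterioles. ATAC-seq uses a transposase that inserts sequencing adapters where DNA is not covered by nucleosomes, so that reads gather at active promoters and enhancers. Promoters of widely expressed genes are open in most cells, while enhancers tend to be open in particular cell types. B cell identity rests on factors such as EBF1 and PAX5, and T cell identity on factors such as TCF-1 (gene Tcf7), LEF1 and GATA3.

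The promoters that best showed the difference between B and T cells were those of Tlr9, Cr2, Themis and Als2cl. They are the 2 in each direction with the smallest p among regions that overlapped the window from 250 bases before to 50 bases after a gene's start. The sequences are those of RefSeq, assembly GRCm38.p6, written 5′ to 3′ on the strand of the gene. Capitals mark any match, on either strand, to 7 short words that stand for families of factors. PU.1, a factor of B and myeloid cells, is searched as GAGGAAG. The wider ETS family to which it belongs is searched as CCGGAAG, which has the same last 5 letters. EBF, the early B cell factor, is searched as CCCNNGGG. TCF-1 and LEF1 of T cells share the word CTTTGAT. RUNX factors, used by both lineages, have the word TGTGGT. The factors of the GATA family, among them GATA3 of T cells, have AGATAA. The E box, bound by E proteins of both lineages, is CANNTG.
Tlr9 promoter, chr9:106222348-106222647, plus strand: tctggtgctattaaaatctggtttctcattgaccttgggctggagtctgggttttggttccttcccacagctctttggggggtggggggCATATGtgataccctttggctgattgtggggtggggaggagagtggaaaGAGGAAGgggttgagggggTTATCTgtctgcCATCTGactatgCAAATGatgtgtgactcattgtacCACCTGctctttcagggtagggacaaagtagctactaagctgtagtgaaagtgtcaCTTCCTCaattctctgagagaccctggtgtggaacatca
Cr2 promoter, chr1:195176670-195176969, minus strand: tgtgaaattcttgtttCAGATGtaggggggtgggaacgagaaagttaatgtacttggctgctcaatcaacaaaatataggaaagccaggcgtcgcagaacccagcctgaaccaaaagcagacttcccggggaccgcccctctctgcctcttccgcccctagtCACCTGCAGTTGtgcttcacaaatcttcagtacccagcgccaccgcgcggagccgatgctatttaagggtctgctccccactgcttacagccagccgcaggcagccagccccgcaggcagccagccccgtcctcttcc
Themis promoter, chr10:28668145-28668444, plus strand: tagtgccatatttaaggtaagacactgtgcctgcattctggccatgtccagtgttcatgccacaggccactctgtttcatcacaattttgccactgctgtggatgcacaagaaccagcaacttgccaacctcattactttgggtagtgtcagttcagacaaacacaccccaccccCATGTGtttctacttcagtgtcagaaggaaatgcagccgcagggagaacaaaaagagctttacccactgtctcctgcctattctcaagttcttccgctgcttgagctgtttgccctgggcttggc
Als2cl promoter, chr9:110880072-110880371, plus strand: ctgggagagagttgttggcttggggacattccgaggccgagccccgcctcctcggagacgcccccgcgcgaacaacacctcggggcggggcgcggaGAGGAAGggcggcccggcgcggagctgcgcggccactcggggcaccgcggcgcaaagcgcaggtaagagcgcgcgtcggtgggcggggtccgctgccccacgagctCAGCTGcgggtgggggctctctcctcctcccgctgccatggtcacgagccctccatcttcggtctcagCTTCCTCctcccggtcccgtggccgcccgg

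The Tlr9 window held 2 matches to the PU.1 word, 1 to the GATA word and 4 to the E box. The Als2cl window held 2 matches to the PU.1 word and 1 E box. The Cr2 and Themis windows matched the E box alone among the 7 words, at 3 places and 1 place. E boxes were common in all promoters: 60.4% of the 9076 promoter windows that overlapped a tested region held one, against 84.4% of the 32 windows overlapped by a region called higher in B and 73.3% of the 30 overlapped by a region called higher in T. The RUNX word stood in 11.8% of all these windows, 25% of the B windows and 36.7% of the T windows. The ETS word was in 21.3% of all windows, 3.12% of the B windows (1 window) and 6.67% of the T windows (2 windows). Shares for the PU.1 word were 13.4%, 21.9% and 26.7%, for the EBF word 18.9%, 21.9% and 16.7%, for the GATA word 5.07%, 18.8% and 3.33%, and for the TCF/LEF word 2.32%, 0% of 32 and 3.33%. The windows also differed in base composition, with a median G+C content of 62.7% over all, 55.8% in the B windows and 60.3% in the T windows, and the shares were not adjusted for it. A match to a word is a description of the letters and not a measured binding site.

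The deposited table held counts for 27396 regions, of which 4 lay on the mitochondrial genome and were set aside. Nuclear counts were 1863884 to 5324006 per B library and 1722193 to 6136842 per T library. The mitochondrial regions took 27.6% ± 6.24 of the counts of B libraries (SD, n = 5) and 19.4% ± 3.09 of those of T libraries (SD, n = 5), a difference of 8.23 points (two-sided exact permutation p = 0.0476, the only single-value test made; the smallest p that the 252 splits allow is 0.00794). This difference passed without B library 1 or T library 4 and missed the threshold without any of the other 8 (exact permutation p 0.0635 to 0.0952). In all 10 libraries the mean Pearson correlation over regions was higher with libraries of the same cell type than with the other. The B library numbered 2 and the T library numbered 2 stood apart from the rest: they had the fewest nuclear counts of their groups and reads in 75.43% and 74.21% of the nuclear regions, against 90.12% to 98.15% in the other 8.

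**Figure D1:**
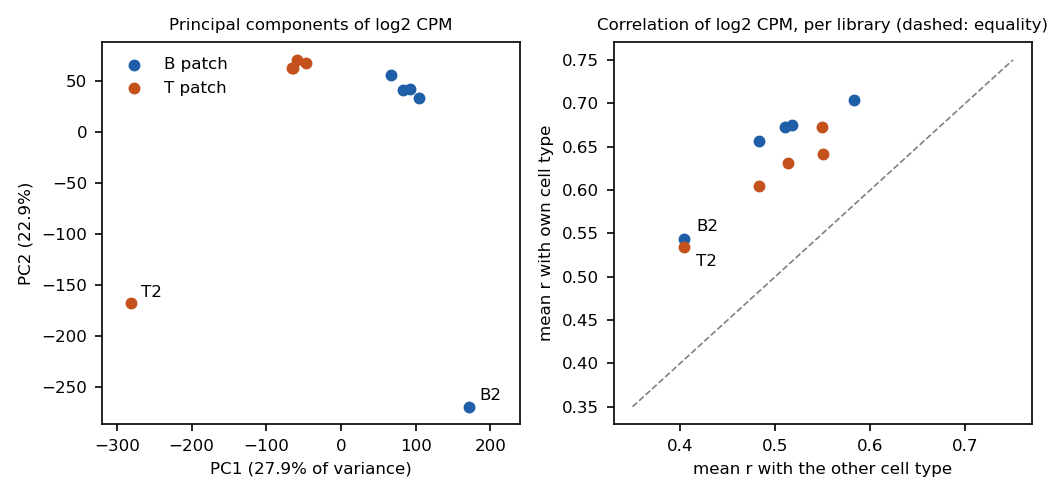
Similarity of the 10 patch libraries, B in blue and T in orange. Left, the first 2 principal components of log2 CPM, with 27.94% and 22.86% of the variance (some points overlap). The first parts B from T, but the libraries numbered 2 lie farthest out on it, at 171.18 (B) and −281.33 (T). The other B libraries reach 104.41 at most, and the other T libraries go no lower than −65.15. The second also sets the libraries numbered 2 apart. Right, each library's mean Pearson correlation with its own cell type against that with the other: all 10 points lie above the dashed line of equality.

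Over 25628 tested regions, 539 differed between B and T cells at an adjusted p under 0.05 (edgeR, Benjamini-Hochberg), which is 2.1% of the tested regions; these are the called regions below. Of them 311 were more open in B (1.21%) and 228 more open in T (0.89%). The differences that passed were large. The median log2 difference was 2.75 for regions called in B and −3.40 for regions called in T. Over all tested regions the signed median was 0.01, and the median size with the sign set aside was 0.562. A difference of at least 4-fold was fitted in 461 of the 539 and in 2895 of all 25628 tested regions. The cut on p itself favours large differences. The smallest called log2 difference was 0.969 in size in B and 1.17 in T. In regions called in B the median level was 71.6 normalized CPM (nuclear counts scaled to a common library total with TMM factors) in B and 10.8 in T, and in regions called in T it was 5.66 in B and 57.8 in T.

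In 521 of the called regions the groups did not overlap at all: in 300 every B library lay above every T library, and in 221 every T library above every B library. Over all tested regions the groups were apart in 2092 (8.16%), of which 1179 (4.6%) had B above T and 913 (3.56%) T above B. The count of calls depended on single libraries. Without B library 1 there were 256 calls (114 in B and 142 in T), without B library 3 there were 294, without B library 4 there were 265, without T library 1 there were 350, without T library 3 there were 264 and without T library 4 there were 331. Leaving out both libraries numbered 2 gave 1128 calls, 621 in B and 507 in T. Each of the 539 regions kept its sign in every one of these fits. They were chosen in these same libraries, so this was nearly fixed in advance. In all 10 fits that left out 1 library 171 were called (94 in B and 77 in T), and 198 were called in 3 or fewer of these 10 fits.

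**Figure D2:**
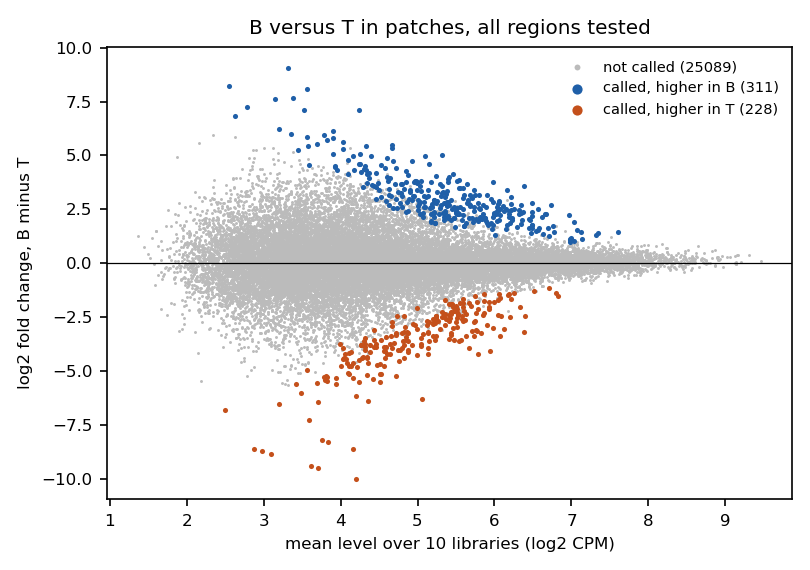
Log2 difference (B minus T) against mean log2 CPM for the 25628 tested regions. Blue points are the 311 regions called higher in B, orange points the 228 called higher in T and grey points the rest; fitted differences beyond about 8 belong to regions with no or nearly no reads in one group and give no size.

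Genes that define each lymphocyte were open in the libraries labelled for it. The marker check used 3 B cell genes, Cr2 (the complement receptor CD21), Ms4a1 (CD20) and Fcrla (an Fc receptor-like protein of B cells), and 3 T cell genes, Themis (a thymocyte signalling protein), Lef1 and Tcf7 (high mobility group factors of T cells). All 4 tested regions of Cr2, all 4 of Ms4a1 and all 4 of Fcrla had a positive log2 difference (B minus T), and all 6 of Lef1, all 9 of Tcf7 and the single one of Themis a negative one. Of these 28 regions 11 were called, 5 in B and 6 in T. The markers were chosen with results of these libraries known, so they describe the labels and do not test them independently.

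At Cr2 the region over the gene's start, chr1:195176439-195176934, overlapped the promoter printed above. It held 149, 84.6, 137, 120 and 87.5 CPM in B libraries 1 to 5 and 36.2, 17.1, 8.77, 13.8 and 6.37 in T libraries 1 to 5. The lowest B library was more than 2-fold above the highest T library. The log2 difference was 2.82 ± 0.45 (SE; edgeR adjusted p = 0.00346). The region was called in all 10 fits that left out 1 library.

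At Ms4a1 the region on an end of the gene, chr19:11266050-11266484, held 100, 102, 83.6, 111 and 84.2 CPM in B and 14.8, 3.62, 4.82, 0 and 21.4 in T, a log2 difference of 3.41 ± 0.68 (SE; edgeR adjusted p = 0.0104). The strand of this gene was not in the promoter table, so its start was not told from its end. Beside it, chr19:11266572-11266709 held 22.9, 22.3, 7.8, 22.5 and 18.7 CPM in B and no reads in any T library. That is at least 108-fold higher in B, taking 3 counts over the T libraries as the limit (edgeR adjusted p = 0.0101). A further region outside the gene, chr19:11244339-11244666, was called with all libraries (log2 difference 3.61 ± 0.90, edgeR adjusted p = 0.0374) and without T library 2, and was lost without any other single library (edgeR adjusted p 0.0517 to 0.109).

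At Fcrla a region 0.93 kb from the start, chr1:170928510-170928881, held 107, 81.1, 103, 62.0 and 77.1 CPM in B and 7.57, 0, 5.85, 11.5 and 4.34 in T. The groups were far apart, with a log2 difference of 3.85 ± 0.62 (SE; edgeR adjusted p = 0.00346). The region on the start itself, chr1:170927557-170927717, was weaker and did not pass, with 20.6, 19.3, 27.6, 35.9 and 37.4 CPM in B and 8.23, 4.66, 10.7, 0 and 11.3 in T (log2 difference 2.0 ± 0.91, edgeR adjusted p = 0.351).

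The Themis region over the start, chr10:28668242-28668652, held 11.9, 18.8, 3.35, 8.38 and 14.0 CPM in B and 115, 132, 63.8, 95.1 and 76.1 in T. It was the single tested region of the gene, and its log2 difference was −3.10 ± 0.47 (SE; edgeR adjusted p = 0.00274). At Lef1 the strongest region, chr3:131157440-131157779, lay inside the gene 1.15 kb from the start and held 7.04, 27.2, 15.1, 7.19 and 13.4 CPM in B and 67.5, 144, 72.6, 90.2 and 85.1 in T (log2 difference −2.73 ± 0.46, edgeR adjusted p = 0.00441). The library numbered 2 was the highest of its group in both cell types. The region at the Lef1 start, chr3:131156491-131156628, differed by −2.62 ± 0.78 and did not pass (edgeR adjusted p = 0.0891).

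Tcf7, which encodes TCF-1, had 3 called regions and none of them was at the start. The region 16.5 kb from the start, chr11:52299516-52299983, held 17.0, 12.9, 44.9, 9.28 and 19.1 CPM in B and 80.3, 69.4, 128, 130 and 144 in T (log2 difference −2.41 ± 0.43, edgeR adjusted p = 0.00628). Inside the gene, chr11:52268533-52268785 held 19.96, 3.96, 14.2, 9.28 and 19.6 CPM in B and 86.3, 47.1, 89.9, 88.9 and 105 in T (log2 difference −2.62 ± 0.48, edgeR adjusted p = 0.00669). B and T libraries did not overlap in either. The other region inside the gene, chr11:52275521-52275654, differed by −3.19 ± 0.72 (edgeR adjusted p = 0.0229) and was not called without B library 3, T library 3 or T library 4 (edgeR adjusted p 0.051 to 0.0684). The region 0.31 kb from the start, chr11:52283320-52283480, differed by −2.47 ± 0.96 and did not pass (edgeR adjusted p = 0.234).

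**Figure D3:**
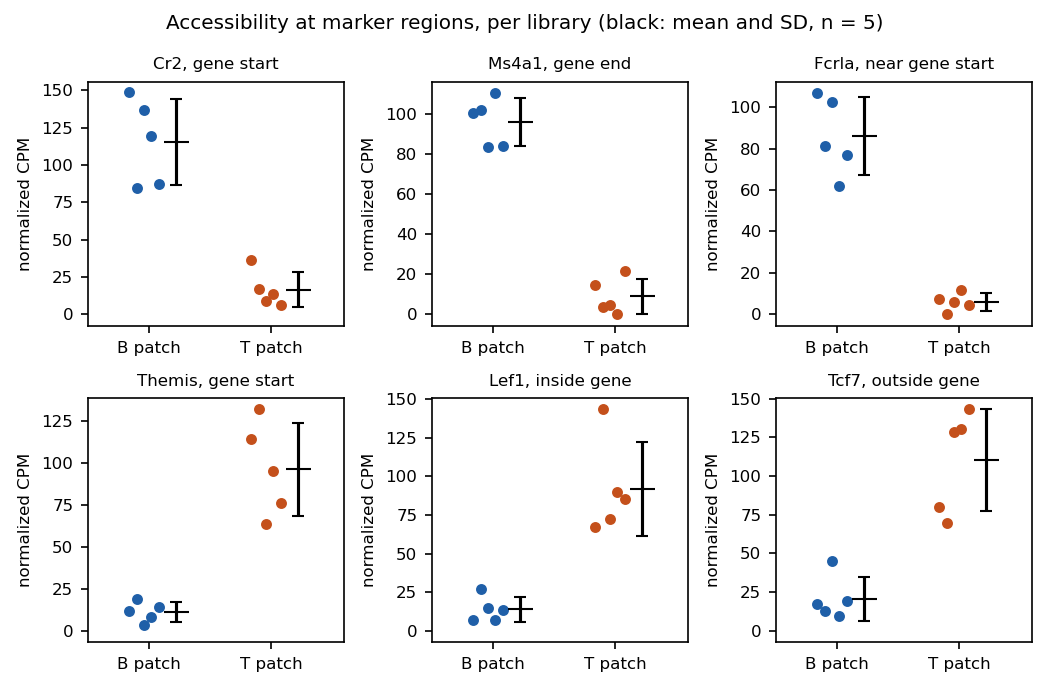
Normalized CPM in each of the 5 B libraries (blue) and 5 T libraries (orange) for 1 region of each marker gene (at Ms4a1 the one on the gene's end, elsewhere the one with the smallest p), with the mean (bar) and SD. The 3 B markers are higher in every B library and the 3 T markers in every T library.

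The difference between the cell types lay mostly away from gene starts. A region was placed at a gene start if it came within 1 kb of one, and the share called there was 0.553% (59 of 10675: 36 in B and 23 in T). For a gene with a known start the far end was not used, and for the remaining genes both ends were used. Inside genes, beyond 1 kb of these points, 3.52% were called (230 of 6535). Outside genes the share was 3.65% within 50 kb of such a point (145 of 3973) and 4.0% farther away (84 of 2100). At gene ends of genes whose strand was not given the share was 0.896% (21 of 2345). Introns and exons were not separated.

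Abundance differed between these places and moves the power of the test, so the shares were also taken within 4 bins of equal size by mean abundance. At a gene start or end 0.614% were called in all (80 of 13020) and elsewhere 3.64% (459 of 12608). An end counts here only for a gene whose start was not known, so 'elsewhere' takes in the far ends of the other genes. In the highest bin the shares were 1.02% (53 of 5194) and 11.2% (136 of 1213), in the third bin 0.641% and 7.22%, in the second 0.203% and 2.08%, and in the lowest 0.0479% and 0.347%. The share was thus higher away from the starts and ends so counted in each bin. The median standard error of the log2 difference was 0.358 in the highest bin and 1.4 in the lowest, where 0.25% of regions were called. By chromosome, the X had 4 calls among 581 regions (0.688%) and chromosome 9 had 44 among 1293 (3.4%).

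**Figure D4:**
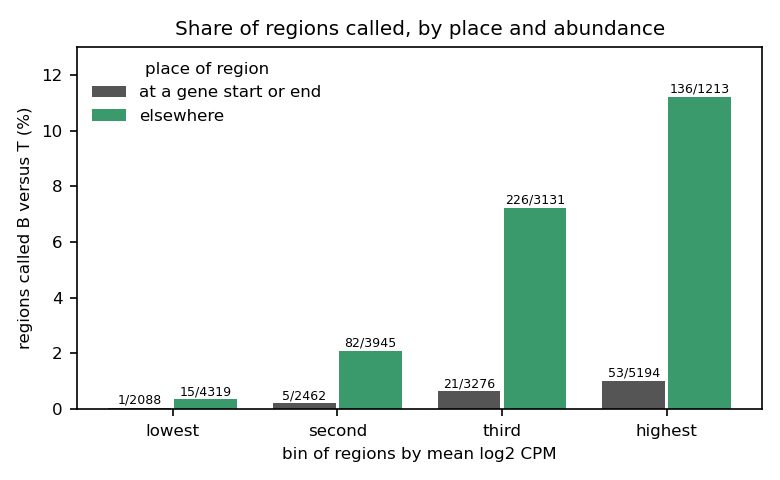
Percent of tested regions called B versus T (bars, from 0) in 4 bins of mean log2 CPM. Grey bars are regions at a gene start or end (an end only where the start was not known) and green bars are regions elsewhere. The numbers over the bars are called over tested regions. The green bar is the taller one in each bin, with 11.2% against 1.02% in the highest.

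Regions at several B cell surface receptor genes were more open in B cells. The list of the B cell receptor and its coreceptors had 22 tested regions, with 5 called higher in B (Cr2, Cd79b, Cd22 and Cd37 among them) and 0 higher in T; at an unadjusted p under 0.05 the counts were 15 and 0, with DESeq2 9 and 0 and with limma-voom 10 and 0. Their median log2 difference was 2.05. CD20 and the Fc receptor-like genes had 19 regions with 8 called higher in B (Ms4a1 in 3 regions, Fcrl1 in 2, Fcrla, Fcmr and Fcer2a) and 0 in T (unadjusted 15 and 0, DESeq2 and limma-voom 11 and 0 each), with a median of 3.16. Both lists were above the 1.21% called higher in B among all tested regions. The other counts, here and for the lists below, have larger totals over the 25628 tested regions. DESeq2 called 886 higher in B and 767 higher in T, and limma-voom 902 and 628. An unadjusted edgeR p under 0.05 was reached by 3194 in either direction.

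Fcrl1, an Fc receptor-like activator of B cells, had its strongest region inside the gene, chr3:87379939-87380225. It held 51.3, 81.1, 92.5, 53.3 and 48.3 CPM in B and 3.29, 0, 2.06, 0.656 and 3.76 in T, a log2 difference of 4.99 ± 0.71 (SE; edgeR adjusted p = 0.00179). No T library reached 4 CPM there. Fcmr, the receptor for IgM, had a region 1.16 kb outside the gene, chr1:130864268-130864621, with 153, 84.1, 122, 98.2 and 101 CPM in B and 1.98, 6.21, 20.6, 20.7 and 40.2 in T (log2 difference 2.63 ± 0.54, edgeR adjusted p = 0.0124).

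Some receptors of innate sensing were more open in B cells. The list of Toll-like receptors and CD180 had 22 regions, with 4 called higher in B (Tlr9, Cd180 in 2 regions and Ly86) and 0 in T; the unadjusted counts were 9 and 2, those of DESeq2 8 and 1 and those of limma-voom 6 and 0. Tlr9 senses unmethylated CpG DNA, and the region over its start, chr9:106222234-106222709, covered the whole promoter printed above. It held 95.1, 155, 154, 132 and 101 CPM in B and 11.2, 25.4, 7.39, 31.5 and 21.4 in T, a log2 difference of 2.72 ± 0.41 (SE; edgeR adjusted p = 0.00262). Cd180, a Toll-like receptor relative of B cells, had 73.2, 63.8, 32.6, 53.0 and 21.4 CPM in B and 0.658, 0, 3.61, 0.328 and 0 in T at chr13:102689561-102689709, 3.84 kb outside the gene (log2 difference 5.50 ± 0.96, edgeR adjusted p = 0.00502).

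Genes of follicular and marginal zone B cells had 47 regions, with 5 called higher in B (Dtx1 in 2 regions, Tnfrsf13c, Cd9 and Cxcr5) and 0 in T (unadjusted 19 and 1, DESeq2 12 and 1, limma-voom 13 and 1), and a median of 1.78. Tnfrsf13c encodes the BAFF receptor, through which mature B cells receive a survival signal. Its region 5.31 kb from the gene, chr15:82218877-82219067, held 25.1, 32.1, 30.7, 28.1 and 39.2 CPM in B and 1.32, 0, 1.2, 0 and 0.289 in T. The log2 difference was 5.61 ± 1.08 (SE; edgeR adjusted p = 0.00866), and all B libraries lay above all T libraries.

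Signal transducers downstream of the B cell receptor had 98 regions, with 11 called higher in B (Syk and Rasgrp3 in 2 regions each, Vav2, Lyn, Plcg2, Bank1, Nfatc1, Pik3ap1 and Swap70) and 0 in T (unadjusted 33 and 1, DESeq2 22 and 0, limma-voom 23 and 1). The median was 1.38. Syk, a kinase of this cascade, had a region 10.45 kb outside the gene, chr13:52572484-52572991, with 163, 148, 125, 122 and 140 CPM in B and 18.4, 20.7, 22, 8.85 and 38.8 in T (log2 difference 2.68 ± 0.37, edgeR adjusted p = 0.00145). The B libraries varied little there and each was more than 3-fold above the highest T library. Lyn, a Src family kinase, had 112, 60.4, 91.7, 53.6 and 66.6 CPM in B and 14.2, 7.77, 8.94, 27.9 and 7.24 in T at chr4:3649030-3649402, 28.67 kb outside the gene (log2 difference 2.54 ± 0.49, edgeR adjusted p = 0.00906). The scaffold Bank1 was open at its start, chr3:136325843-136326339, with 114, 70.7, 93.1, 104 and 76.4 CPM in B and 14.2, 1.04, 0.516, 20.3 and 14.2 in T (log2 difference 3.18 ± 0.67, edgeR adjusted p = 0.0144).

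Genes of MHC class II, the complex that shows antigen to CD4 T cells, had 41 regions with 11 called higher in B and 0 in T (unadjusted 26 and 0, DESeq2 17 and 0, limma-voom 19 and 0) and a median of 1.85. The called ones were at H2-Ab1, H2-Aa, H2-Eb1 and Cd74 in 2 regions each, and at H2-DMb1, H2-DMb2 and Ciita. The peptide loading subunit H2-DMb2 had 206, 148, 127, 166 and 151 CPM in B and 18.8, 35.7, 43.7, 24.3 and 58.8 in T at chr17:34142961-34143390 (log2 difference 2.13 ± 0.33, edgeR adjusted p = 0.00322). Class II genes are near-copies of each other, and the sources used here do not say how reads that map to several places were treated. Ciita, the master activator of these genes, had 187, 89.5, 90.9, 102 and 127 CPM in B and 3.62, 26.9, 18.7, 51.5 and 24.0 in T at chr16:10515907-10516543 inside the gene (log2 difference 2.26 ± 0.48, edgeR adjusted p = 0.0152). Leaving out B library 1 or T library 3 ended the Ciita call (edgeR adjusted p 0.0511 to 0.0661).

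B lineage transcription factors were mixed. Of 91 regions, 5 were called higher in B (Ebf1 in 2 regions, Irf8, Pou2af1 and Pax5) and 2 higher in T (Bach2 and Pou2f2); the counts were 22 and 10 unadjusted, 12 and 8 with DESeq2 and 14 and 4 with limma-voom. The median was 0.62. Ebf1, a founding factor of the lineage, had 142, 138, 121, 140 and 117 CPM in B and 14.5, 3.11, 4.47, 8.53 and 48.1 in T at chr11:44617105-44617422, 0.68 kb from the start (log2 difference 3.05 ± 0.55, edgeR adjusted p = 0.00648). The T libraries were uneven, with T library 5 well above the other 4. Pou2af1, the coactivator OCA-B, had 160, 134, 131, 140 and 134 CPM in B and 70.1, 55.4, 48.5, 26.9 and 39.7 in T at its start, chr9:51213109-51213792, a smaller log2 difference of 1.54 ± 0.30 (SE; edgeR adjusted p = 0.0103).

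The pair of regions higher in T on that list lay inside genes, the one in Pou2f2 23.33 kb from the nearest start or end used. Bach2, a repressor that keeps lymphocytes of both lineages from terminal differentiation, had 7.04, 5.94, 17.6, 1.5 and 6.24 CPM in B and 54.0, 87.0, 64.5, 110 and 75.3 in T at chr4:32291424-32291807, 125.63 kb from the start (log2 difference −3.34 ± 0.56, edgeR adjusted p = 0.00441). Pou2f2, which encodes OCT-2, had 37.8, 43.5, 16.7, 13.5 and 18.7 CPM in B and 93.2, 239, 157, 62.3 and 155 in T at chr7:25155787-25156335 (log2 difference −2.44 ± 0.42, edgeR adjusted p = 0.00441). Neither pair of groups overlapped, and both regions were called in all 10 fits that left out 1 library.

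On the T cell side, the T cell receptor complex and its coreceptors had 33 regions with 8 called higher in T (Thy1 in 3 regions, Cd8b1 and Cd5 in 2 each, and Cd3g) and 0 in B (unadjusted 16 and 0, DESeq2 14 and 0, limma-voom 12 and 0). The median was −1.95, and the share is to be read against the 0.89% called higher in T among all tested regions. Cd4 had no tested region. Thy1, a surface glycoprotein of mouse T cells, had 11.9, 13.8, 3.35, 11.1 and 5.79 CPM in B and 35.9, 94.2, 44.2, 63.6 and 65.4 in T at an end of the gene, chr9:44043247-44043494 (log2 difference −2.72 ± 0.55, edgeR adjusted p = 0.0118). A region 9.21 kb outside, chr9:44034019-44034172, differed by −4.70 ± 1.03 (edgeR adjusted p = 0.019) and was lost without T library 1 (edgeR adjusted p = 0.0586).

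Cd8b1, the beta chain of the CD8 coreceptor of cytotoxic T cells, had 0.196, 0, 1.11, 0 and 2.9 CPM in B and 35.2, 44.5, 18.4, 39.0 and 25.5 in T at chr6:71307579-71307818, 14.97 kb outside the gene. The region was nearly closed in B (log2 difference −5.15 ± 1.10, edgeR adjusted p = 0.0168). Cd5, an inhibitory receptor, had 26.0, 9.89, 29.0, 24.2 and 23.4 CPM in B and 103, 29.0, 72.0, 192 and 95.8 in T at chr19:10747630-10748126, 8.66 kb outside the gene (log2 difference −2.12 ± 0.46, edgeR adjusted p = 0.0174). T library 4 was the highest and T library 2 lay near the B libraries, and without T library 4 the call was lost (edgeR adjusted p = 0.0859).

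T lineage transcription factors had 80 regions, with 9 called higher in T (Tcf7 in 3 regions, Lef1 and Runx3 in 2 each, Satb1 and Gata3) and 2 higher in B (Ets1 and Tox); the counts were 27 and 6 unadjusted, 20 and 3 with DESeq2 and 21 and 3 with limma-voom. The median was −0.68. Runx3, a factor of the CD8 lineage, had 23.1, 21.3, 27.6, 20.4 and 16.3 CPM in B and 89.9, 111, 65.9, 55.1 and 71.5 in T at chr4:135080332-135080729, 39.92 kb outside the gene (log2 difference −1.85 ± 0.40, edgeR adjusted p = 0.017). The B libraries lay in a narrow range below all T libraries.

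Ets1, a factor that B cells use as well, was called higher in B inside the gene, at chr9:32652046-32652602, with 185, 157, 93.4, 145 and 106 CPM in B and 14.2, 35.7, 10.8, 49.9 and 23.4 in T (log2 difference 2.36 ± 0.41, edgeR adjusted p = 0.00441). Every B library lay above every T library, and the call held in all 10 fits that left out 1 library. Tox, known for its part in CD4 T cell development and in exhausted T cells, had 57.7, 56.4, 82.0, 63.8 and 81.1 CPM in B and 12.2, 7.77, 17.7, 2.3 and 23.7 in T at chr4:6924518-6925149 (log2 difference 2.41 ± 0.54, edgeR adjusted p = 0.0218). Leaving out B library 1, 3, 4 or 5 or T library 1 ended the Tox call (edgeR adjusted p 0.0517 to 0.0699).

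T cell receptor signalling genes had 71 regions, with 6 called higher in T (Cd226, Themis, Skap1 and Txk among them) and 0 in B (unadjusted 21 and 2, DESeq2 16 and 0, limma-voom 15 and 0), and a median of −0.92. Costimulation, cytokine receptor and homing genes had 75 regions, with 5 called higher in T (Il6ra, Il7r, Il21r, Cd28 and Cd40lg) and 1 in B (Ccr7); the counts were 23 and 5 unadjusted, 13 and 2 with DESeq2 and 9 and 2 with limma-voom. The median was −0.61. Il6ra, a receptor chain for interleukin 6, had 12.7, 0, 9.76, 0 and 7.57 CPM in B and 81.3, 148, 70.7, 103 and 68.3 in T at chr3:89872247-89872535 inside the gene (log2 difference −3.92 ± 0.77, edgeR adjusted p = 0.00967). Il7r, the receptor chain on which naive T cells depend for survival, had 12.5, 8.41, 0, 5.99 and 1.78 CPM in B and 52.7, 124, 50.2, 47.9 and 66.3 in T at chr15:9574847-9575257, 44.97 kb outside the gene (log2 difference −3.56 ± 0.75, edgeR adjusted p = 0.0151). Both regions were low in every B library.

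The homing receptor Ccr7, which guides T cells, and also B cells, to the T zone, was the 1 region of these 75 called higher in B, a share near the 1.21% of all tested regions, with 92.8, 123, 103, 116 and 93.3 CPM in B and 33.6, 41.4, 11.5, 39.4 and 53.0 in T at chr11:99168127-99168412, 13.05 kb outside the gene (log2 difference 1.56 ± 0.38, edgeR adjusted p = 0.0322). The groups did not overlap. Leaving out B library 1, 3, 4 or 5 or T library 1, 3 or 4 ended the call (edgeR adjusted p 0.0572 to 0.0822). Effector and cytotoxic T genes had 15 regions, with 1 called higher in T and 0 in B (unadjusted 4 and 0, DESeq2 and limma-voom 3 and 0 each). It was at the start of Cxcr6, a chemokine receptor of effector and tissue T cells, at chr9:123806435-123806552, with 0, 0, 0, 5.39 and 0.445 CPM in B and 20.4, 60.6, 18.6, 37.4 and 25.5 in T (log2 difference −4.76 ± 1.23, edgeR adjusted p = 0.0453). This call held without B library 2 or B library 4 and was lost without any of the other 8 (edgeR adjusted p 0.0728 to 0.108), and without B library 4, which held most of the B reads, the difference was −7.65.

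**Figure D5:**
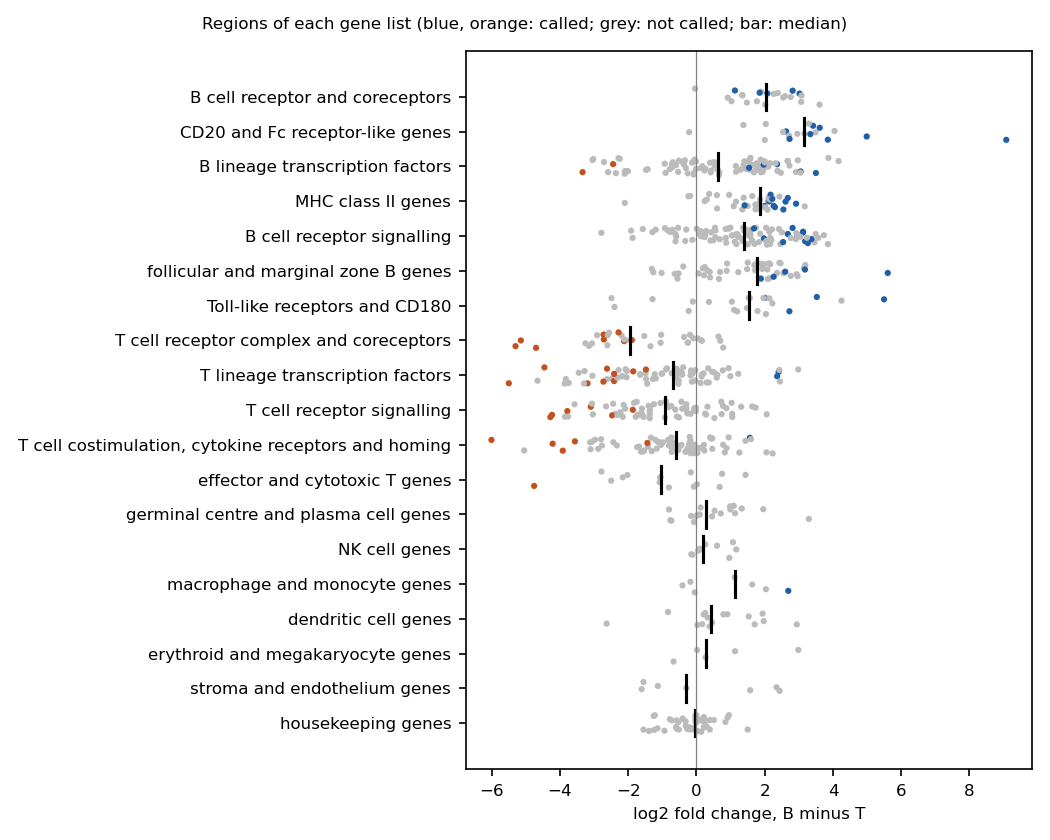
Log2 difference (B minus T) of each tested region of 19 gene lists that had any, with the list's median as a bar. Blue points are called higher in B, orange points higher in T and grey points are not called; the 7 B cell lists have medians from 0.62 to 3.16 and the 5 T cell lists from −1.95 to −0.61.

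The region with the smallest p in each direction lay at a gene outside the lineage lists. Among regions higher in B it was at an end of Napsa, an aspartic protease gene, at chr7:44572145-44572673, with 234, 188, 153, 217 and 128 CPM in B and 20.7, 23.3, 22.9, 51.2 and 22 in T (log2 difference 2.72 ± 0.33, edgeR adjusted p = 0.000656). Next came a region inside Tmem163, which encodes a zinc transporter, at chr1:127514507-127515158, with 162, 144, 132, 208 and 133 CPM in B and 11.5, 26.9, 23.9, 9.84 and 40.2 in T (log2 difference 2.79 ± 0.38, edgeR adjusted p = 0.00145). In both the lowest B library was at least 2-fold above the highest T library. Rnf41, a ubiquitin ligase gene, differed by 2.81 ± 0.43 at chr10:128438993-128439232 (edgeR adjusted p = 0.00274), and Sh2b3, which encodes an adaptor that restrains cytokine receptor signalling, by 2.85 ± 0.44 at chr5:121833894-121834130 (edgeR adjusted p = 0.00322).

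Mef2c, a transcription factor that acts downstream of the B cell receptor, had 3 regions called higher in B, all inside the gene. The most one-sided, chr13:83524707-83524905, held 27.0, 31.2, 41.3, 44.3 and 39.0 CPM in B and 0, 0, 0.172, 0.656 and 0.289 in T (edgeR adjusted p = 0.00179). The region chr13:83571965-83572528 held 213, 129, 164, 141 and 155 CPM in B and 6.92, 13.5, 30.1, 49.5 and 37.6 in T (log2 difference 2.53 ± 0.42, edgeR adjusted p = 0.004). The third, chr13:83609044-83609512, differed by 2.53 ± 0.52 (edgeR adjusted p = 0.0124). All 3 were called in each fit that left out 1 library. The other genes with 3 calls in 1 direction were Ms4a1, Fbxo11 and Scd1 in B and Tcf7 and Thy1 in T.

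Among regions higher in T, the smallest p was inside Il20rb, a subunit of receptors for the interleukin 20 family, at chr9:100460255-100460647. It held 19.4, 10.9, 25.1, 18.3 and 7.79 CPM in B and 130, 177, 153, 162 and 127 in T, a log2 difference of −3.19 ± 0.36 (SE; edgeR adjusted p = 0.00036). The highest B library was more than 5-fold below the lowest T library. Inside Fam78a, chr2:32047472-32047581 held 0, 0, 0, 0 and 0.223 CPM in B and 38.9, 27.4, 26.3, 44.3 and 35.6 in T. The B reads there were 1 count in 1 library, which gives a ratio of 624 with a 95% exact interval of 112 to 24700 that covers counting error only (edgeR adjusted p = 0.00145).

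The general factor gene Gtf2i, which has close copies in the genome, had 11.2, 0, 3.35, 3.29 and 8.91 CPM in B and 82.7, 84.9, 109, 122 and 122 in T at chr5:134282613-134282988 (log2 difference −4.22 ± 0.61, edgeR adjusted p = 0.00179). Actn1, which encodes an actin crosslinker, had 6.85, 21.8, 5.3, 5.39 and 15.6 CPM in B and 74.4, 122, 94.2, 74.1 and 122 in T at chr12:80273094-80273515, 12.73 kb outside the gene (log2 difference −3.16 ± 0.48, edgeR adjusted p = 0.00274). Neither region had overlapping groups. A region 34.48 kb outside Tmsb10, an actin-binding peptide gene, differed by −3.04 ± 0.51 at chr6:72993232-72993610 (edgeR adjusted p = 0.00441).

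A smaller group of calls lay on gene starts. Als2cl, whose promoter is printed above, had 18.2, 0, 6.97, 17.4 and 10.0 CPM in B and 114, 112, 107, 103 and 74.1 in T at chr9:110880063-110880360 (log2 difference −3.25 ± 0.60, edgeR adjusted p = 0.00673). Vipr1, the receptor for vasoactive intestinal peptide, had 12.3, 14.8, 20.4, 9.58 and 26.5 CPM in B and 109, 84.9, 76.9, 80.3 and 45.5 in T at chr9:121642523-121642798 (log2 difference −2.24 ± 0.44, edgeR adjusted p = 0.00984). Pkib, an inhibitor of protein kinase A, was higher in B, with 87.1, 129, 138, 126 and 105 CPM in B and 0, 0, 10.8, 20 and 11.0 in T at chr10:57631839-57632232 (log2 difference 3.77 ± 0.74, edgeR adjusted p = 0.00967). In all 3 the groups stood clear of each other. The start of Lrig1, a membrane protein that restrains growth factor receptors, differed by −1.68 ± 0.35 at chr6:94700076-94700463 (edgeR adjusted p = 0.0133).

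Some of the calls of highest mean abundance differed by less than the median call. Rasgef1b, a guanine nucleotide exchange factor gene, had 332, 312, 261, 238 and 276 CPM in B and 112, 128, 106, 63.3 and 119 in T at its start, chr5:99252591-99253213 (log2 difference 1.43 ± 0.25, edgeR adjusted p = 0.00496). Ell2, an elongation factor used in antibody secretion, had 282, 197, 252, 259 and 186 CPM in B and 116, 53.9, 71.7, 65.3 and 136 in T at chr13:75707173-75707836 (log2 difference 1.41 ± 0.29, edgeR adjusted p = 0.0113). T cells kept a sizeable signal at both. On the T side, Tha1, a threonine aldolase gene, differed by −1.52 ± 0.32 at chr11:117871820-117872462 (edgeR adjusted p = 0.016), and this call was lost without T library 3 (edgeR adjusted p = 0.0509), while the Pou2f2 region given above, also among the 5 most abundant T calls, differed by −2.44.

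Calls in opposite directions were assigned to the same gene at 5 genes, Cblb, Irgc1, Itgb3, Pde4d and St8sia1, though not all of these regions lay inside the gene. At Cblb, Itgb3 and Pde4d they did. Cblb encodes a ubiquitin ligase that restrains antigen receptor signalling in lymphocytes. Its region 97.99 kb from the start, chr16:52129543-52129902, held 1.96, 0, 0.836, 3.89 and 9.35 CPM in B and 58.0, 80.8, 33.5, 45.6 and 40.2 in T (log2 difference −3.95 ± 0.81, edgeR adjusted p = 0.0129). Its region 6.7 kb from the start, chr16:52038245-52038621, held 76.3, 38.6, 79.4, 97.6 and 35.2 CPM in B and 4.94, 18.6, 16.2, 14.8 and 19.7 in T (log2 difference 2.14 ± 0.51, edgeR adjusted p = 0.0296). The region near the start was thus the B cell one and the far one the T cell one. Leaving out any of the libraries 1, 3 and 4 of either cell type ended the call near the start (edgeR adjusted p 0.0578 to 0.113).

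Pde4d, a phosphodiesterase that breaks down cyclic AMP, showed the same arrangement over a shorter stretch of a very long gene. The region chr13:109781491-109781819 held 37.2, 78.7, 32.6, 92.5 and 45.4 CPM in B and 0, 2.59, 5.16, 3.94 and 8.11 in T (log2 difference 3.82 ± 0.76, edgeR adjusted p = 0.0104; without B library 4 the adjusted p was 0.0507). The region chr13:109837573-109837856 held 0.587, 0, 2.79, 0 and 4.01 CPM in B and 39.2, 35.2, 34.0, 57.1 and 43.7 in T (log2 difference −4.74 ± 0.96, edgeR adjusted p = 0.0118). They lay 1127.31 and 1183.4 kb from the gene start used.

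Of the 539 called regions, 84 were given no gene, 48 in B and 36 in T. They lay outside genes, with no known start within 50 kb and no end of a gene whose start was not known. The 3 with the smallest p were higher in T. At chr3:115815593-115815963 the values were 9.2, 14.3, 20.1, 12.9 and 14.9 CPM in B and 97.1, 110, 92.3, 135 and 89.8 in T (log2 difference −2.87 ± 0.38, edgeR adjusted p = 0.0014). At chr15:60112074-60112228 no B library had a read and the T libraries held 36.9, 28.5, 24.8, 48.9 and 40.0 CPM, at least 214-fold higher in T with 3 counts over the B libraries as the limit (edgeR adjusted p = 0.00161). At chr2:117418845-117419037 the B libraries held 1 count in all and the T libraries 22.4, 21.8, 31.1, 20.7 and 41.1 CPM, a ratio of 532 with a 95% exact interval of 95.1 to 21100 (edgeR adjusted p = 0.00322). Across all calls 8 regions had no read in the other group, 2 called in B and 6 in T.

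Lists of other cells that a patch could hold were short, and with 2.1% of all tested regions called, a count of 0 in them is near that share. Germinal centre and plasma cell genes had 20 regions with 0 called (unadjusted 3, DESeq2 2, limma-voom 1), NK cell genes 10 regions with 0 (unadjusted 0, DESeq2 0, limma-voom 0), dendritic cell genes 16 with 0 (unadjusted 1, DESeq2 1, limma-voom 2), erythroid and megakaryocyte genes 5 with 0 (unadjusted 0, DESeq2 0, limma-voom 1), and stroma and endothelium genes 7 with 0 (unadjusted 4, DESeq2 3, limma-voom 2). Over all tested regions 3194 of 25628 had an unadjusted edgeR p under 0.05, and DESeq2 called 6.45% and limma-voom 5.97%. By each of these counts the stroma and endothelium list stood above the share of all regions. Only 3 of its 13 genes had a tested region. Its unadjusted regions were split, 2 higher in B and 2 higher in T. None of the 8 neutrophil genes had a tested region, against 2 of 5 NK cell genes and 4 of 10 erythroid and megakaryocyte genes. Housekeeping genes had 45 regions with 0 called (unadjusted 2, DESeq2 1, limma-voom 1) and a median log2 difference of −0.03.

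The summed levels of the dendritic cell list and of the macrophage and monocyte list were higher in every B library than in every T library. The 16 dendritic cell regions, 14 of them with a positive log2 difference, summed to 261 to 367 CPM in B libraries and 162 to 258 in T libraries. The macrophage and monocyte list had 1 call among 7 regions (14.3%), and 4 of the 7 had a positive log2 difference and 3 a negative one. Only 2 of its 12 genes had a tested region, and Cd68, C1qa, Lyz2 and Cd14 were among those without. Its 7 regions summed to 173 to 304 CPM in B libraries and 65.9 to 132 in T libraries. The call was 9.21 kb outside Adgre1, which encodes the macrophage antigen F4/80, at chr17:57349164-57349376, with 89.4, 106, 88.4, 18.9 and 59.5 CPM in B and 26.7, 11.4, 4.82, 0.328 and 13 in T (log2 difference 2.69 ± 0.69, edgeR adjusted p = 0.0451). B library 4 lay below T library 1, so the groups overlapped. The call held without B library 4 or T library 1 and was lost without any of the other 8 (edgeR adjusted p 0.054 to 0.129). The part of macrophages and dendritic cells in the B cell results was not tested.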

How the data were processed

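ATAC-seq counts were analysed in the 10 patch libraries of mouse spleen. Per the submitters' processing notes the build was mm10, and the tools included Bowtie2 2.4.5, MACS2 2.2.7.1 and Trimmomatic 0.36; the sources used here do not state how duplicates were handled or whether reads were shifted. The authors deposited raw whole-number counts per region, with no stated molecular identifiers, so counting intervals and limits cover counting error only. Coordinates are printed as deposited, and the sources used here do not say if starts count from 0 or 1.

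Mitochondrial rows were removed, regions were filtered with filterByExpr (minimum count 10), and B was tested against T with TMM factors and edgeR 4.0.16's quasi-likelihood test in R 4.3.3, with Benjamini-Hochberg adjustment at 0.05 over all regions tested. Normalized CPM are nuclear counts scaled to a common total with TMM factors. Alternatives were DESeq2 1.42.0, limma-voom (limma 3.58.1), other scalings and filters, a replicate block and leaving out libraries. The mitochondrial share was compared by an exact permutation test.

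Genes came from RefSeq GRCm38.p6, whose coordinates are those of mm10. Starts were known for 78.2% of 22373 genes, and both ends were used for the rest. A region took the gene with a start or end within 1 kb, else the gene it lay in, else the nearest start or end within 50 kb, which gave a gene to 90.7% of nuclear regions. The nearest gene need not be the gene a region acts on.

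The comparison, the marker genes and the gene lists were chosen with earlier results of these data known. Named regions are the markers' nearest and smallest-p regions, the 10 calls with the smallest p and the 5 of highest abundance in each direction, up to 3 genes per list, and genes with 3 or more calls; a part of these is printed, some being not reported here, and it was picked after the values were seen, as were the pairs of opposite calls and the regions without a gene.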

Additional observations from a re-analysis of the deposited data

Results flagged for a closer look

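In each group of 5 libraries the highest or lowest value was compared with its nearest neighbour, and flagged when the gap took up more than 0.71 of the group's range (Dixon's test). For normally distributed values chance flags about 1 in 20 groups. That rate does not hold for groups with many zeros, and a group with reads in 1 library alone is always flagged. Over the regions described, 13 of 130 groups were flagged, and 2 measures of whole libraries besides. The share flagged is therefore no measure of an excess.

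The whole-library flags and 3 of the 13 region flags fell on libraries numbered 2. The TMM factor of B library 2 was 1.0923, and T library 2 had reads in 74.21% of nuclear regions. At the start of Lef1 B library 2 held 36.6 CPM and T library 2 149 CPM, each the highest of its group. T library 2 was also the highest of its group beside Il7r (124 CPM).

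Other libraries were flagged in single regions. B library 3 was low at the end of Ms4a1 (7.8 CPM) and high outside Tcf7 (44.9 CPM). B library 4 was the highest B library at Cxcr6 (5.39 CPM). B library 5 was low in Mef2c (65.3 CPM) and held the single B read in Fam78a and in the gene-free region on chromosome 2 (0.223 CPM each). T library 3 was high at Cd180 (3.61 CPM), T library 4 at Napsa (51.2 CPM) and T library 5 at Ebf1 (48.1 CPM), while T library 5 was low at Als2cl (74.1 CPM).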

How the results depend on the processing

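All 539 called regions kept their sign in each of the 20 other fits. They were chosen in these same libraries, and in 521 of them the groups did not overlap, so their signs could hardly change. The number of calls changed with the test and the libraries. The count was 1653 with DESeq2, 1530 with limma-voom, 1128 without both libraries numbered 2, and 256 to 665 when 1 library was left out. It was 0 in a fit of all 18 libraries, which shares 1 spread with the libraries of 100 nuclei (730 regions had an unadjusted p under 0.05 there, against 3194 in the fit reported). Other scalings, filters and the mitochondrial rows gave 556 to 588 calls. With the replicate number as a block there were 174 calls, 108 in B and 66 in T. The numbers share no source in the labels. Deviations from the group means correlated little between same-numbered libraries (correlations of −0.0054, 0.0338, 0.0287, 0.0081 and 0.0275). The B and T libraries numbered 2 were each other's closest match and shared a low share of regions with reads. Closest matches were also mutual between differently numbered libraries, B library 3 with T library 5 and B library 5 with T library 3. Whether the block is a pairing is not known. The difference in mitochondrial share was 6.73 to 10.44 points when 1 library was left out, with an exact permutation p over 0.05 in 8 of the 10 cases. Of the 62 called regions described, 50 were called in all 10 fits that left out 1 library and 60 without both libraries numbered 2. Many of the 62 were picked for a small p, which favours stable calls. Among all 539 calls the same counts were 171 and 509. The causes were not tested. In the lowest of 4 abundance bins, where the median standard error was 1.4, 0.25% of regions were called.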
